A study of Mus musculus with 9 samples.

Results

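The 9 genes described here encode parts of the basement membrane, its receptors and an enzyme that hardens matrix: Col4a1, Col4a2, Lama1, Lamb1, Lamc1, Nid1, Itga5, Itga6 and Lox, out of 21883 mouse protein-coding genes with a position on chromosomes 1 to 19, X or Y. They were taken by name, and the measurement is where the glucocorticoid receptor (GR), a hormone-activated transcription factor, was found on DNA in their neighbourhood by chromatin immunoprecipitation and sequencing (ChIP-seq). Each gene was examined over its span with 50 kb added to each side, in coordinates of mouse build mm10. In these windows the deposited peak lists held 49 distinct GR loci out of 18584 in all, and 36 peaks of H3K27ac (acetylated lysine 27 of histone H3, a mark of active promoters and enhancers) out of 37453.

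The cells were granulosa cells of wildtype CBA x C57BL/6 F1 mice aged 21 days, primed with 5 IU of equine chorionic gonadotropin (eCG), which drives follicle growth. The 0 h group was collected 44 h after eCG and received no further hormone. The 6 h group also received 5 IU of human chorionic gonadotropin (hCG), a stand-in for the surge of luteinising hormone, and was collected 6 h after it, so hCG cannot be told apart from the longer time since eCG or from a further injection. GR was mapped in 2 libraries per group and H3K27ac in 1 library at 0 h. Nothing in the labels says whether the libraries came from separate mice, so their spread may be technical. At 0 h, H3K27ac peaks lay over or within 1 kb of 10 of 10 granulosa cell marker genes, 4 of 7 theca cell markers, 2 of 8 endothelial, 2 of 8 leukocyte and 1 of 8 oocyte markers. The share over all genes at that distance is not given here, so these counts stand without a reference.

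A basement membrane is a thin sheet of matrix on which epithelial cells rest. Its 2 networks are built from type IV collagen, in which α1 and α2 chains wind around each other, and from laminin, a cross of an α, a β and a γ chain, and nidogen links the networks. Cells hold on to it through integrins, receptors made of an α and a β chain. In the ovary such a sheet encloses the granulosa cells of a follicle and keeps blood vessels out until ovulation, when it is broken down.

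Near the 9 genes the 6 h lists held more GR peaks than the 0 h lists. Peaks in the joined windows numbered 14 and 12 in the 0 h lists and 34 and 28 in the 6 h lists, so the groups did not overlap. The means were 13 ± 1.41 and 31 ± 4.24 (SD, n = 2 libraries each), a difference of 18 peaks. An exact two-sided permutation test gave p = 0.333, the smallest that 2 against 2 libraries can reach. The whole lists did not overlap in length either, with 10116 and 9726 peaks at 0 h and 14746 and 10588 at 6 h on the chromosomes used. The difference near the 9 genes was 8.5 peaks when the 9726 strongest of each list were taken and 7 with the stronger 50% of each. As a share of its own list, each library held 0.138% and 0.123% of its peaks in these windows at 0 h and 0.231% and 0.264% at 6 h, again without overlap. By gene, 5 of the 9 (Col4a1, Col4a2, Lama1, Lamc1 and Itga5) had more peaks in each 6 h list than in each 0 h list, against 10.9% of all protein-coding genes. This share was not matched for window length. The first 4 of these genes had windows of 213865 bp or longer, against a median of 117170 bp. Without Lama1, which had the most peaks, the counts were 5 and 6 at 0 h and 18 and 15 at 6 h.

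**Figure D1:**
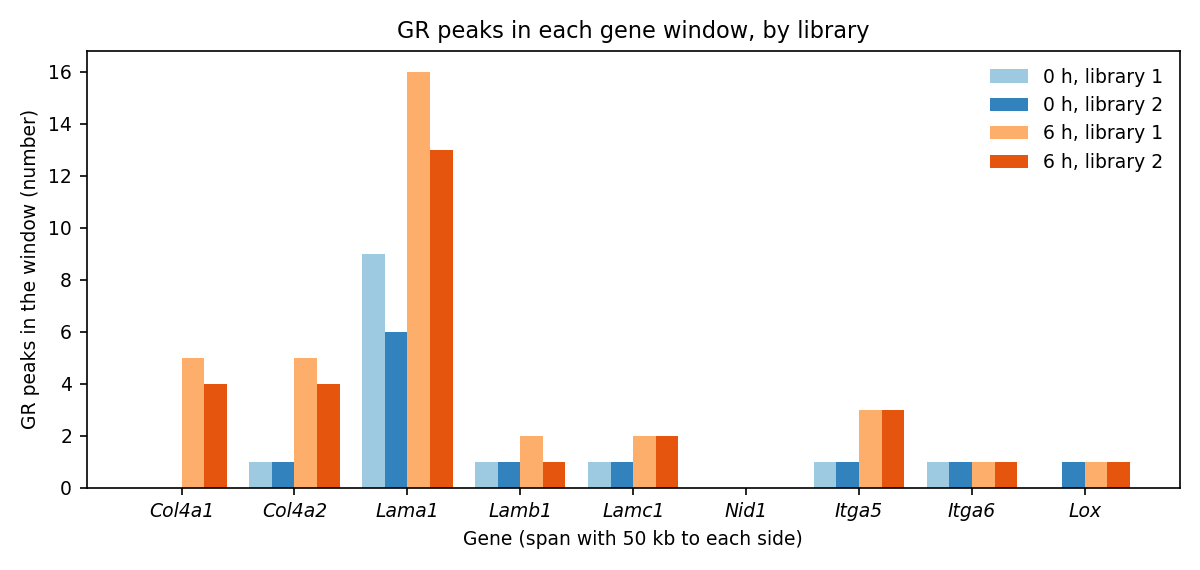
Number of deposited GR peaks in the window of each gene (vertical axis), with 1 bar per library at 0 h (blue) and 6 h (orange, paler for library 1 of each time). Lama1 holds the most peaks in every library, Nid1 holds none, and the peak over the common start of Col4a1 and Col4a2 is counted for both.

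Overlapping peaks of the 4 lists were joined into loci. A locus is termed 6 h-only when each 6 h list has a peak in it and the 0 h lists have none, 0 h-only for the reverse, and shared when every list has a peak in it. Of the 49 loci near the 9 genes, 12 were 6 h-only (24.5%, 95% Wilson interval 14.6 to 38.1), against 15.1% of all loci. None was 0 h-only (interval up to 7.27%), against 4.15% of all loci. When lists of equal length were used, 2 of 32 were, against 8.98% of all loci so built. Without the first or the second 0 h library, 1 of 44 and 5 of 48 were, against 9.38% and 9.73%. Without the first or the second 6 h library, 2 of 36 and 1 of 43 were, against 16.5% and 4.81%. Shared loci numbered 5 (10.2%, 4.44 to 21.8), against 27%. The remaining 32 had other sets of lists. Counting loci with peaks at 6 h alone, in either list or both, gave 31 of 49 against 38.3% of all loci, and 6 had peaks at 0 h alone, against 13.8%. All 6 of these lay in the window of Lama1.

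Lama1 alone held 30 of the 49 loci. In the other 8 windows, 8 of 19 loci were 6 h-only (42.1%, 23.1 to 63.7) and 4 were shared (21.1%, 8.51 to 43.3). The 6 h-only count over all 9 genes was 12 or 13 when either 0 h library was dropped. It was 18 when the first 6 h list was dropped and 25 when the second was, since a locus then needs a peak in 1 list at 6 h instead of 2. The share of all loci in that class was then 26.96% and 33.5%. With the stronger 50% of each list, 5 of 17 loci were 6 h-only and 2 were shared, against 16.9% and 21.5% of all loci at that setting.

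Counted by gene, 6 of the 9 had a 6 h-only locus within 50 kb (Col4a1, Col4a2, Lama1, Lamb1, Lamc1 and Itga5), against 16.5% of all protein-coding genes. Long genes have long windows, and those of the 9 genes ran from 113808 to 236483 bp against a median of 117170 bp. Among genes with windows of that range of lengths, 18.7% had a 6 h-only locus. This matches length only loosely, since the range starts below that median. The windows of Col4a1, Col4a2, Lama1 and Lamc1 were 213865 bp or longer, that of Lamb1 was 164499 bp and that of Itga5 122506 bp. None of the 9 had a 0 h-only locus, against 6.78% of genes, and 5 had a shared locus, against 45.5%. A locus of any kind lay near 8 of the 9 genes, against 68.8%, and an H3K27ac peak near 7 of the 9, against 75.4%. In all 6 genes the 6 h-only locus lay over the gene itself.

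**Figure D2:**
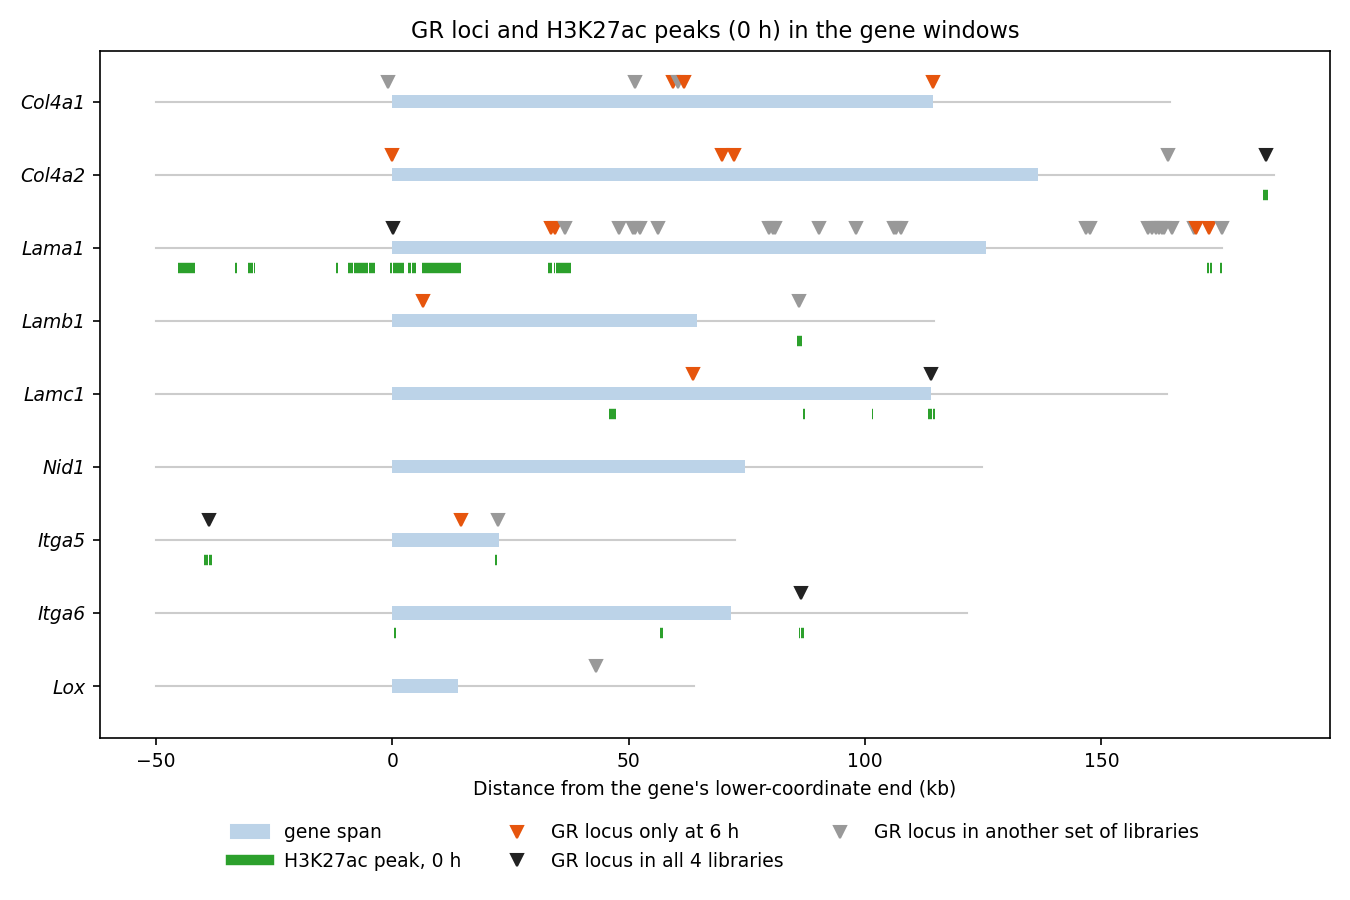
Each row is 1 gene window, drawn as distance in kb from the end of the gene with the lower coordinate, with the gene span (blue bar), GR loci (triangles above it) and H3K27ac peaks of 0 h (green, below). The 6 h-only loci (orange triangles) lie inside genes or at their ends except for 2 beyond Lama1, and the Lox window reaches only 42 bp into an H3K27ac peak at its edge, too little to show.

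The type IV collagen genes together held 5 of the 12 6 h-only loci, and no peak of the 0 h lists lay over either gene. Col4a1 (chr8:11198423-11312889) and Col4a2 (chr8:11312805-11449287) encode the α1 and α2 chains and lie head to head, with start sites 21 bp apart and gene spans that overlap by 85 bp. A single 6 h-only locus, chr8:11312575-11312950, covered both start sites and was counted once. Its fold enrichments, as the authors give them, were 8.75 and 5.77 in the 6 h lists. The summit, the point of highest signal, lay at position -54 from the Col4a2 start site in the first 6 h library and at -148 in the second. The same summits are 75 and 169 bp downstream of the Col4a1 start site. H3K27ac did not overlap either promoter at 0 h. The nearest H3K27ac peak lay 184137 bp from the locus, beyond Col4a2.

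The sequences of this locus are shown because 1 locus serves both genes: the first holds both start sites, and the others are centred on the summits. They come from RefSeq promoter windows of GRCm38.p6, whose coordinates are those of mm10, and are read on the strand of Col4a2. Capitals mark the bases from one start site to the other in the first, and the summit base in the others.
Start sites of Col4a1 and Col4a2, chr8:11312801-11312830, plus strand: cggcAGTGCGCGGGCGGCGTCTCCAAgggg
Summit in the first 6 h library, chr8:11312736-11312765, plus strand: ctgcgcagagacctgAgcgcgccgcccgag
Summit in the second 6 h library, chr8:11312642-11312671, plus strand: ggaaatgcagcccagTtcccgtgggccacg
These 30-base runs hold 24, 23 and 20 G or C bases. The 300-base promoter windows of Col4a1 and Col4a2 (250 bases before to 50 after the start site) were 74.0% and 73.7% G or C, against a median of 52.7% over 32817 promoters. Of those promoters, 0.509% overlapped a 6 h-only locus, and 0.14% did so with no H3K27ac peak, as both of these do.

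Other collagen IV loci lay deep inside the genes. The strongest, chr8:11382020-11383084, was inside Col4a2, with its highest summit 69673 bp from the start site and fold enrichments of 15.03 and 17.9 at 6 h and no peak at 0 h. By the authors' p-value it stood 1105th of 14746 peaks in the first 6 h list and 285th of 10588 in the second. A weaker 6 h-only locus followed at chr8:11384869-11385198, with 6.63 and 4.63. Inside Col4a1 a pair of 6 h-only loci lay close together, chr8:11257636-11258016 with 7.31 and 9.998, and chr8:11259765-11260311 with 11.5 and 10.3. Another 3 loci of the Col4a1 window, among them one 851 bp beyond the gene, had a peak in 1 of the 6 h lists, with 3.86 to 7.06. None of the loci inside either gene overlapped H3K27ac, and the Col4a1 window had no H3K27ac peak at all. The shared locus of the Col4a2 window, chr8:11497395-11497846, lay 48108 bp beyond Col4a2, over an end of Naxd, a metabolite repair enzyme gene. It was within H3K27ac, with 7.70, 7.29, 11.9 and 8.56 in the lists of 0 h and 6 h in order.

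The 3 laminin chain genes each had a 6 h-only locus inside the gene, and Lama1 and Lamc1 also had a shared locus over an end. Lamc1 (chr1:153218922-153332786), the γ1 chain gene, had 2 loci. The shared one, chr1:153332437-153333420, covered the end of the gene with the higher coordinate and overlapped H3K27ac, with 9.02 and 8.10 at 0 h and 10.5 and 7.27 at 6 h. The other was 6 h-only, chr1:153282414-153282734, inside the gene and 50052 bp from its nearer end. Its fold enrichments, 15.97 and 19.9, were the highest of the 12 6 h-only loci in each 6 h list, and it stood 1183rd and 343rd in those lists. The nearest H3K27ac peak was 16263 bp away.

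Lamb1 (chr12:31265146-31329644), the β1 chain gene, had a 6 h-only locus, chr12:31271430-31271721, with its highest summit 6245 bp past the start site. The fold enrichments were 6.96 and 8.56, and the nearest H3K27ac peak was 78985 bp away. No H3K27ac peak lay over the gene. The second locus of the window, chr12:31350971-31351547, lay at an end of the neighbour Dld, the gene of a mitochondrial dehydrogenase, and within H3K27ac. It had peaks in 3 lists, with 10.1 and 10.1 at 0 h and 9.14 in the first 6 h library.

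Lama1 (chr17:67697127-67822645), the α1 chain gene, had more GR loci and more H3K27ac peaks in its window than any other of the 9 genes. It held 30 GR loci, or 13.3 per 100 kb, against a median of 0.982 per 100 kb over all gene windows. As many loci in a window were found for 16 genes, Lama1 included, or 0.0731%. Peaks per library were 9 and 6 at 0 h and 16 and 13 at 6 h. As shares of the lists these were 0.089% and 0.0617% at 0 h and 0.109% and 0.123% at 6 h. H3K27ac peaks numbered 21, covering 29289 bp or 12.99% of the window, against 0 to 5 peaks in each other window. Equally many H3K27ac peaks were found for 0.818% of genes.

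GR and H3K27ac were laid out differently along Lama1. The shared locus, chr17:67697062-67697572, lay over the end with the lower coordinate and overlapped H3K27ac, with 12.0 and 12.2 at 0 h and 12.6 and 7.67 at 6 h. By the authors' p-value it stood highest of the 5 shared loci in every list, at 555th, 753rd, 1029th and 2348th. Below the gene, in the direction of lower coordinates, 10 of 11 H3K27ac peaks had no GR peak. Over the whole Lama1 window 14 of 21 had none, and over all H3K27ac peaks 23932 of 37453. Inside it, 33383 and 34286 bp from that end, were 6 h-only loci at chr17:67730510-67730970 (9.61 and 12.8) and chr17:67731413-67731642 (7.85 and 6.51), both overlapping H3K27ac. Of the 16 loci inside Lama1, 13 lay outside H3K27ac. Another 13 loci lay over the neighbour Arhgap28, and 11 of them were outside H3K27ac. They include 6 h-only loci at chr17:67866933-67867486 (6.95 and 4.10) and chr17:67869701-67870025 (7.99 and 6.00).

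When only overlapping peaks were joined, most Lama1 loci had a peak in 1 list. Of the 30, 20 had a peak in 1 list (66.7%, 48.8 to 80.8), 14 of them at 6 h and 6 at 0 h, against 32.9% of all loci. The fold enrichments of these 20 ran from 4.36 to 8.65 with a median of 6.75, close to the median of 6.46 over all 6108 such loci. Their median −log10 p-value was 15.3, against 16.4. Leaving Lama1 out, 5 of 19 loci had a peak in 1 list (26.3%, 11.8 to 48.8). Some Lama1 loci of 1 list lay close to a locus of another list. Examples are chr17:67859724-67860087 in the first 6 h list and chr17:67860130-67860409 in the second. Joining peaks across gaps of up to 500 bp gave 40 loci near the 9 genes, 6 of them shared. The number of Lama1 loci with a peak in 1 list under that rule is not given here.

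Nid1 (chr13:13437602-13512275), the gene of nidogen, had neither a GR locus nor an H3K27ac peak within 50 kb. The nearest GR locus lay 77855 bp from the gene and the nearest H3K27ac peak 77665 bp from it.

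Of the integrin genes, Itga5 had a 6 h-only locus over the gene and Itga6 had no GR locus over it. Itga5 (chr15:103344286-103366791) encodes the α chain of the main fibronectin receptor. It had a 6 h-only locus inside the gene, chr15:103358617-103358888, with 12.1 and 8.12 at 6 h and no peak at 0 h, with its highest summit 8035 bp past the start site. This locus was 7207 bp from the nearest H3K27ac peak. A weaker locus at the start of the gene, chr15:103366389-103366864, had a peak in the first 6 h library alone (5.98) and overlapped an H3K27ac peak. The third, chr15:103304999-103306006, was shared and lay 38280 bp outside Itga5 and 2227 bp from Gpr84, with 6.78 and 6.36 at 0 h and 9.05 and 3.86 at 6 h. In the second 6 h list this locus held 2 peaks, and the value is that of the peak with the lower p-value.

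The start of Itga5 is printed because a GR locus covers 73 of the bases before the start site there. This is the weaker locus called in the first 6 h library alone, and its summit lay 277 bp past the start site, outside the printed run. The run below holds the 250 bases before the start site on the minus strand, from the RefSeq promoter table of GRCm38.p6, and capitals mark GC boxes (GGGCGG on either strand). The GC box at position -6 lay within the locus and the one at -149 did not.
Itga5, chr15:103366792-103367041, minus strand: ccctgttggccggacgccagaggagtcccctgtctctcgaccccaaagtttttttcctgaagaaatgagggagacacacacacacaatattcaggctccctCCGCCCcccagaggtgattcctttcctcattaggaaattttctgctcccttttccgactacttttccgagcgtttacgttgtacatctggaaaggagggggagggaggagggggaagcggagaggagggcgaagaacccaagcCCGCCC
Promoters of 5 of the 9 genes were in the table (Col4a1, Col4a2, Lamb1, Nid1 and Itga5). Each holds 1 to 3 GC boxes, and 35.6% of all promoters hold at least 1. None of the 5 holds the GR half-site TGTTCT (18.97% of promoters), the AP-1 motif TGANTCA (7.81%), the cyclic AMP response element TGACGTCA (1.79%) or the SF-1 motif AAGGTCA (4.72%), searched on both strands. Facing GR half-sites 3 bases apart, which contain TGTTCT, are in 3 of the 32817 promoters and in none of these. No sequence beyond these promoter windows was searched.

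Itga6 (chr2:71786886-71858427), the α chain of laminin receptors, had no GR locus over the gene, although H3K27ac peaks lay over it at 2 places. Its 1 locus, chr2:71872942-71873557, was shared and lay 14515 bp outside Itga6 at an end of Pdk1, a pyruvate dehydrogenase kinase gene. The fold enrichments were 7.41 and 7.47 at 0 h and 9.05 and 5.82 at 6 h. So 3 of the 5 shared loci of the set, those of Col4a2, Itga5 and Itga6, lay outside the member and nearer to an end of another gene.

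**Figure D3:**
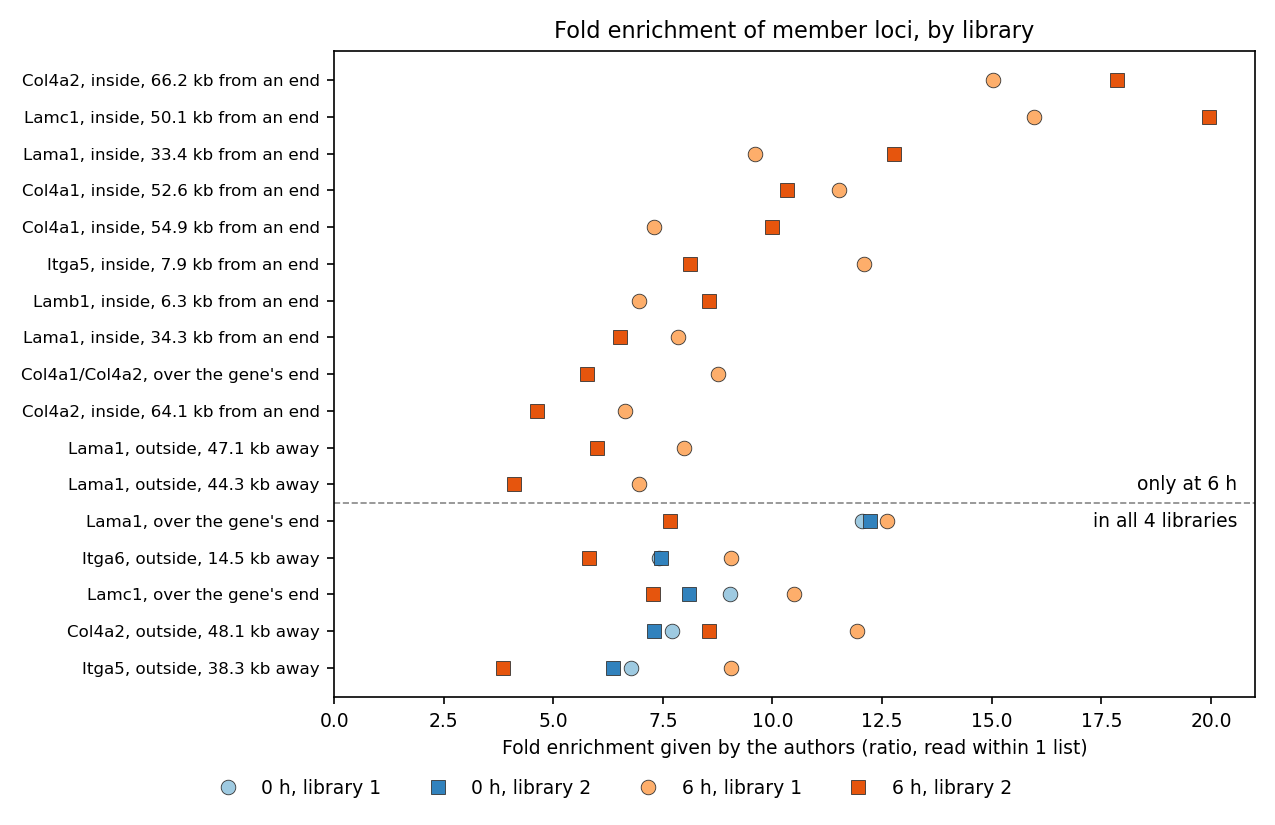
Fold enrichment given by the authors (horizontal axis, ratio over the estimated background) for the 12 6 h-only loci and the 5 shared loci of the 9 genes, 1 row per locus and 1 mark per list that holds it. The Lamc1 and Col4a2 loci inside the genes reach 19.9 and 17.9, and the shared loci lie between 3.86 and 12.6.

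Lox encodes lysyl oxidase, which crosslinks collagen and elastin. Its window (gene at chr18:52516060-52529867) held 1 GR locus, chr18:52558816-52559373, 28949 bp outside the gene and 91013 bp from H3K27ac. The locus had no peak in the first 0 h list, 7.86 in the second, and 16.4 and 10.3 in the 6 h lists. It therefore belongs to no class, and without the second 0 h library it would be 6 h-only. By the authors' p-value it stood 7137th of 9726 in the 0 h list and 1447th and 2639th in the 6 h lists.

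Fold enrichments were read within 1 list and were not tested between lists. Over the 12 6 h-only loci the median was 8.37 in the first 6 h list and 8.34 in the second, against 8.98 and 8.35 for all 2806 loci of that class. The medians for the 5 shared loci were 7.70, 7.47, 10.5 and 7.27 in order, against 8.69, 8.81, 9.73 and 6.88 for all 5012. Summits of the 2 libraries lay 7 to 94 bp apart at the 12 loci.

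Few of the GR loci near the 9 genes lay in H3K27ac of 0 h. Of the 49, 12 overlapped an H3K27ac peak (24.5%, 14.6 to 38.1), against 74.4% of all loci. Lama1 had 6 of 30 loci in H3K27ac and the other windows 6 of 19 (31.6%, 15.4 to 54.0). All 5 shared loci lay in H3K27ac, as did 98.4% of all shared loci. Of the 12 6 h-only loci, 3 did (25%, 8.89 to 53.2), all near Lama1, against 39.3% of all 6 h-only loci. At the other genes it was 0 of 8 (interval up to 32.4%). With the stronger 50% of each list the share for the 9 genes was 47.1%, against 81.8% of all loci at that setting. H3K27ac at 6 h was not analysed here.

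**Figure D4:**
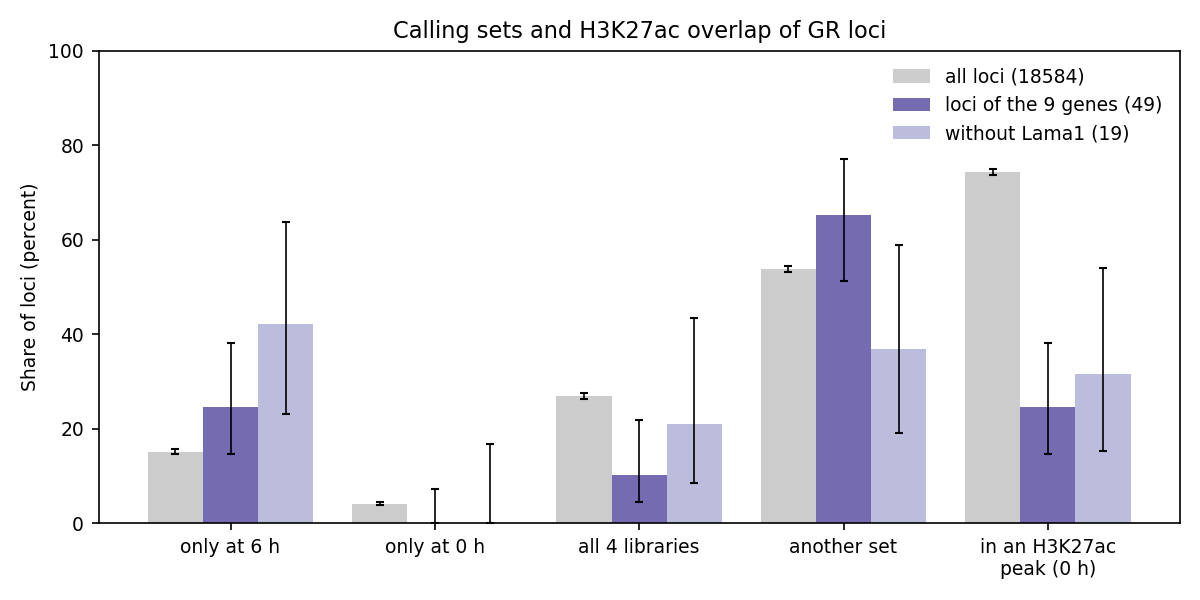
Share of loci in percent (vertical axis) by calling set and by overlap with H3K27ac of 0 h, for all 18584 loci (grey), the 49 loci of the 9 genes (purple) and the 19 without Lama1 (pale purple), with 95% Wilson intervals. The 49 loci sit at 24.5% in H3K27ac against 74.4% of all loci.

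Among 50 other genes of basement membranes, integrins and matrix crosslinking, 19 had a 6 h-only locus within 50 kb (38%, against 16.5% of all genes), 5 a 0 h-only locus (10%, against 6.78%) and 22 a shared one (44%, against 45.5%). These shares were not matched for window length. By group, 6 of 22 basement membrane genes, 11 of 24 integrin genes and 2 of 4 lysyl oxidase-like genes had a 6 h-only locus. Itgb6, an integrin β chain gene, had 2, the stronger inside the gene with 22.7 and 19.01 at 6 h, outside H3K27ac. Sparc, a collagen-binding matrix protein gene, had 3, the strongest with 14.5 and 10.1 and within H3K27ac. Col15a1, the gene of a basement membrane collagen, had 2. The 6 h-only locus of Itgam, 6.51 and 6.89, was also that of its neighbour Itgax, so it counted for both. The best-ranked 6 h-only locus of Itga1, chr13:114916339-114916891, lay outside that gene. It was within 50 kb of the one over Itga2, chr13:114895842-114896353, and so counted for both genes as well.

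Lama4, a laminin α chain gene, was the only basement membrane gene of that list with 0 h-only loci. It had 2, the stronger with 7.18 and 6.07 at 0 h and no peak at 6 h. Itgal, Itga11, Itga3 and Itgb5 had 1 each. Itgb1, the β chain that pairs with the products of Itga5 and Itga6, had 1 shared locus over the gene, with 13.6 and 9.69 at 0 h and 8.31 and 6.52 at 6 h.

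In their numbers of loci in the 4 calling classes, the other genes most like Col4a1 and Col4a2 were Sparc and Col15a1, each with a difference of 1 locus summed over the 4 classes. Lamb1 had the same numbers as Itgam and Itgax, Itga6 the same as Itgb1, Nid2 and Col4a3, and Lox the same as Agrn, Col4a5 and Col4a6. The class of other sets joins unlike sets of lists, so matched genes can differ by time. Lox had 0 and 1 peaks at 0 h and 1 and 1 at 6 h. Agrn had 1 and 1, then 1 and 0, and Col4a5 and Col4a6 had 1 and 0, then 0 and 0. At 0 h Lamb1 had 1 and 1 peaks, and Itgam and Itgax had 0 and 0. Itga6 and its matches had 1 peak in every list. Nid1, with no locus, shared that with 8 of the 50, among them Lama2, Lamb3 and Itga4. For Lama1 the nearest was Itga2, at a summed difference of 15 loci.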

How the data were processed

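The submitters' processing notes name the aligner Bowtie2 2.4.5, the peak caller MACS2 (no version stated) and the build mm10. The authors deposited 1 peak list per library. For each GR peak, the authors deposited a score, a fold enrichment (ratio over the caller's estimated background), −log10 p-values and −log10 q-values, and a summit. The weakest −log10 p-value in the deposited lists was 9.00 to 9.10, so a missing peak means only that this limit was not passed. Read depth was not used here. Of the H3K27ac list only the positions were used.

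Peaks overlapping by 1 bp or more were joined into loci (Python 3.11.15, pandas 2.3.3), tested on simulated lists. Gene spans and promoters came from NCBI RefSeq tables of GRCm38.p6, matched by symbol: spans for all 9 genes and all 50 others, promoters for 5 of the 9. Exons and introns were not told apart. Peaks per library were compared by exact permutation test (scipy 1.17.1). Shares have 95% Wilson intervals, which cover counting error only, and stand beside the share over all loci or genes without a test, since neighbouring loci are not independent. The members and lists were chosen with earlier results of these data known. By the rule for naming, all 9 genes were described, with the strongest locus of each class and the nearest locus of each window in full. Alternatives were other windows, list lengths, merging rules and omitted libraries. The other 4 samples of the series were not analysed here.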

Additional observations from a re-analysis of the deposited data

How the results depend on the processing

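The difference in peaks kept its direction under every alternative run, from 7 peaks with the stronger 50% of each list to 21 with a library left out (15 to 21 over the 4 omissions). The replicate numbers were not used to pair the libraries. The deviations of same-numbered libraries correlated at 0.029 over the 5012 shared loci, which does not exclude that they were handled together. The replicate block gave the same 18 peaks with an exact permutation p of 0.5, the smallest for 2 pairs. With the stronger 50% of each list, 5 loci were 6 h-only, 2 were shared and 47.1% of loci lay in H3K27ac. Lists cut to 9726 peaks each gave 2 0 h-only loci, a window of 100 kb gave 1, and joining summits within 200 bp gave 1. Shared loci numbered 2 with a window of 10 kb, and 2 when the nearest gene end had to be that of a member, an alternative chosen after seeing the data like the one without Lama1. With a library left out, 6 h-only loci ranged from 12 to 25, 0 h-only loci from 1 to 5, shared loci from 5 to 7, the share in H3K27ac from 25% to 30.6% and members with a 6 h-only locus from 6 to 7. The difference in peaks was 8.5 with lists of equal length and 11 without Lama1. Other counts of loci and of genes stayed within 1.5 times the main count, and other shares in H3K27ac within the interval of the main share. Depth is unknown, so a peak absent from a list is not shown to be absent from the cells.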

Other observations

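Several acetylated places near these genes carried no GR peak in any of the 4 lists. Of the 36 H3K27ac peaks in the windows, 17 overlapped a GR locus (47.2%), against 36.1% of all H3K27ac peaks. Lama1 had 14 of the 19 without GR, among them the widest, 8372 bp, inside the gene. It also held 21 of the 36 peaks, and 33.3% of its peaks overlapped a GR locus, near the share over all H3K27ac peaks. Lamc1 had 3, all inside the gene, and Itga6 had 2, of which 1 lay 270 bp from an end of the gene. All H3K27ac peaks in the windows of Itga5, Col4a2, Lamb1 and Lox, which number 3, 1, 1 and 1, overlapped a GR locus. That of Lox, at the edge of its window, lay 72 bp from an end of Srfbp1. The GR locus overlapping this H3K27ac peak lay outside the Lox window, although the peak is among the 17.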
